A study of Mus musculus with 67 samples.

Results

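The accessible elements at 10 gene loci of the canonical Wnt pathway were examined in neuromesodermal progenitors (NMPs) and in the ventral neural progenitors (NPs) that form from them in culture. An element belonged to a locus when the deposited annotation named as its nearest gene Rspo3, Lgr5, Axin2, Nkd1, Notum, Lef1, Tcf7, Tcf7l1, Tcf7l2 or Sp5. This rule took 153 of the 111638 elements with deposited values, and it used no measured value. By gene, it took 32 elements for Tcf7l2, 25 for Axin2, 23 for Lef1, 16 for Tcf7l1, 15 for Sp5, 14 for Rspo3, 12 for Nkd1, 9 for Tcf7, 5 for Lgr5 and 2 for Notum. Of the 153 elements, 74 were intronic, 69 intergenic and 10 lay at a promoter, exon or transcript end. For 17 of them the surrounding gene was another one, namely Cep112 beside Axin2, Myo3b beside Sp5 and A930009A15Rik beside Lgr5, so the assignment to the Wnt gene rests on distance alone. Each element is named here by its gene and by the distance in bp from its centre to the annotated transcription start site (TSS), with a minus sign for upstream. The TSS element of a gene is here the element nearest to its TSS, which for the 10 genes lay at most 1262 bp away.

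In canonical Wnt signaling, secreted Wnt ligands bind Frizzled and LRP receptors and stabilise beta-catenin, which enters the nucleus and acts with the HMG-box factors of the TCF/LEF family. Many direct targets of the pathway feed back on it, and Axin2 and Sp5 are used widely as readouts of its activity. In the embryo, Wnt signaling maintains the NMPs of the tail bud, which form both spinal cord and paraxial mesoderm.

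Chromatin accessibility was measured by CaTS-ATAC, an ATAC-seq method for formaldehyde-fixed cells that are stained for intracellular markers and sorted before bulk library preparation. HM1 mouse embryonic stem cells received bFGF and the porcupine inhibitor LGK for the opening days, then bFGF, the GSK3 inhibitor CHIR99021, which activates the pathway downstream of the receptors, and the inhibitors SB-431542 and DMH1. NMPs were collected at day 3, before any Smoothened agonist (SAG). From day 3 every NP culture received 100 nM retinoic acid with 0, 10, 100 or 500 nM SAG, and 4 NP types were sorted at days 4, 5 and 6. The p0-1 samples came from 0 and 10 nM SAG, p2 from 10 and 100 nM, and pMN and p3 from 100 and 500 nM. CHIR99021 was thus in the medium before day 3 and not after it in every lineage, and its withdrawal, the retinoic acid and the day of collection cannot be told apart in the comparison of NMPs with day 4. All cells were of this 1 line.

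There were 67 samples in 25 conditions, 17 with 3 replicates and 8 with 2, and the replicates were independent differentiations. Total reads in elements ranged from 9298160 to 29985325 per sample (median 20254011). The elements at the TSSs of all 7 NMP markers examined (T, Cdx1, Cdx2, Cdx4, Nkx1-2, Wnt3a and Fgf8) were more accessible in NMPs than in any NP group, and their summed level was 9348 to 10960 normalized counts in NMPs and 1366 to 3682 at day 4. Beside the NMP comparisons below, the summed level of the TSS elements of Pou5f1, Nanog and Zfp42, the pluripotency markers (3 of 3 with an element), was 1573 to 2468 in NMPs and 125.3 to 274.5 at day 4, and the part of residual pluripotent cells in those results was not tested. The summed level of 5 neuron markers and of 3 neural crest markers was higher in NMPs as well (3307 to 3943 and 1539 to 1684, against 1726 to 2587 and 475.9 to 1175 at day 4). Among the neuron markers, Tubb3, Elavl3 and Stmn2 were higher in NMPs. Elavl4 and Dcx were lower there, with means of 150.2 and 21.92 against 354.6 to 640.3 and 39.17 to 70.98 in the day 4 groups. Among the NP markers at day 6, the TSS elements of Olig1 and Olig2 were highest in pMN, those of Pax6, Dbx1 and Dbx2 in p0-1 and that of Foxn4 in p2. That of Nkx6-1, which the paper places in p2, pMN and p3, was lower in p0-1 (1431 normalized counts) than in these types (2431, 2586 and 2521). The remaining markers were not highest in the type they were listed for. Irx3, listed for p2, was highest in p0-1. Of those listed for p3, Nkx2-9 was highest in pMN (2091 normalized counts against 1914 in p3) and Sim1 in p0-1 (670.2 against 637.7), whereas Nkx2-2 was not analysed here. At days 4 and 5, Nkx2-9 was highest in p3 among the NP types (1927 and 2376, against 1772 and 1868 in pMN). Sim1 was highest in p3 at day 4 (760.8 against 738.4 in p0-1) and in p0-1 at day 5. Values below are normalized counts, that is, reads divided by the size factor of the sample, and they are comparable between samples for 1 element but not between elements of different width.

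The sequences below are the central 200 bp of elements on which the results turn, read from the mm10 reference on its forward strand. Capitals mark matches to the TCF/LEF core (CTTTGAT or ATCAAAG) or to the core of FOXA, the forkhead factors of the ventral midline (TGTTTAC or GTAAACA). The 4 elements that follow were among those that lost most accessibility between NMPs and day 4. The Sp5 element, at the promoter, held 3 TCF/LEF cores over its whole width of 5982 bp and the Notum element held 1, while the Axin2 element held none and the single core of the Nkd1 element lay outside the stretch shown.
Sp5 -97 (chr2:70474727-70474926): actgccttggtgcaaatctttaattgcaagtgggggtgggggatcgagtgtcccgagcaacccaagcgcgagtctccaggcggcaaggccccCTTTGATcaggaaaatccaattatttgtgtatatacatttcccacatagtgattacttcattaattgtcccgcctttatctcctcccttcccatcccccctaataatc
Notum -5406 (chr11:120666144-120666343): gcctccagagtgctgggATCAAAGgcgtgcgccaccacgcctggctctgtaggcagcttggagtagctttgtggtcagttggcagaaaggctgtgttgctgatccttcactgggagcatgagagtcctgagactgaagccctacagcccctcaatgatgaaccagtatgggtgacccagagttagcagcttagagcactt
Axin2 -13371 (chr11:108906879-108907078): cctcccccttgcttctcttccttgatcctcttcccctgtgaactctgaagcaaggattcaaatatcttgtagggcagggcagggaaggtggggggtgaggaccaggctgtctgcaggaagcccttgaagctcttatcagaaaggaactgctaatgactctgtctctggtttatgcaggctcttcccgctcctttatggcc
Nkd1 -25850 (chr8:88495395-88495594): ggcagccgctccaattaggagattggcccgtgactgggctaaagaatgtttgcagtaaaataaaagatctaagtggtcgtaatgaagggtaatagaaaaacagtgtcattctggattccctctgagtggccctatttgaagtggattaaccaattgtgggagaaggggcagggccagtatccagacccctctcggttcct

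The next 3 stretches show an intronic Tcf7l1 element that opened in every NP type and 2 intronic Tcf7l2 elements with most signal in p3. Both Tcf7l2 stretches hold a FOXA core in the same orientation.
Tcf7l1 +58373 (chr6:72730573-72730772): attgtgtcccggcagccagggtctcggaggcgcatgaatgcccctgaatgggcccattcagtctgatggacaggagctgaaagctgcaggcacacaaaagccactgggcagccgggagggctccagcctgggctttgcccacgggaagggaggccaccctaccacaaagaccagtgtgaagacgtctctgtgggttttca
Tcf7l2 +139054 (chr19:55880765-55880964): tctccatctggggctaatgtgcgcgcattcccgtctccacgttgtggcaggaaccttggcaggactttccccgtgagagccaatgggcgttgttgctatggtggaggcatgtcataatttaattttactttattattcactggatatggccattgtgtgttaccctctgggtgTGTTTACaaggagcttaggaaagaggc
Tcf7l2 +145018 (chr19:55886729-55886928): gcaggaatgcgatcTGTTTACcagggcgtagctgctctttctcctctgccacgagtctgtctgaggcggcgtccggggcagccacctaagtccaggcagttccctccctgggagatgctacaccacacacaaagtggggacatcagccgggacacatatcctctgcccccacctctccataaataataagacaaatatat

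Searched on both strands in the central 300 bp, the TCF/LEF core was present in 14 of the 153 elements (9.15%) and in 5.04% of all 111638 elements. The FOXA core was present in 10 (6.54%), against 4.96% of all elements. Of the 36 Wnt-locus elements that were lower at day 4 than in NMPs, 3 held the TCF/LEF core and 0 the FOXA core. Of the 15 that were higher at day 4, 0 held the TCF/LEF core and 1 the FOXA core. Of the 7 that were higher in p3 at day 6, 2 held the FOXA core. The shares of the cores among all elements with the same changes were not computed, so these counts have no matching reference. A match gives only that these letters are present in the window.

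The first comparison asked how the loci differed between NMPs and the NPs of the following day. At 8 of the 10 genes the elements that passed the test were mostly or entirely lower at day 4, whereas at Tcf7l2 they were higher and at Tcf7l1 the calls fell equally in both directions. An element was tested in a pair of groups when its mean exceeded 100 normalized counts, and it was called when the mean changed more than 2-fold at an adjusted p below 0.01 in limma. Of the 153 elements, 59 were tested in at least 1 of the 4 pairs, 36 of which were lower at day 4 in at least 1 pair, where 29.7% of all tested elements were lower. Another 15 were higher, where 25% of all tested elements were higher. The filter acts on the mean over both groups. It leaves out elements low in both, and some that were open in NMPs but nearly closed in the more numerous NP samples. Tcf7l2 +50789, with 155, 262 and 332 counts in NMPs and a mean of 18.2 over all 67 samples, was not tested. An element that passes through 1 group alone can only be called higher in that group. These counts therefore describe the tested elements and not the loci. The 4 pairs share the same 3 NMP samples and are given side by side. In p0-1, p2, pMN and p3, 23, 25, 25 and 33 elements were lower (23.2%, 27.3%, 27.3% and 27% of all tested) and 12, 12, 12 and 10 were higher (18.4%, 20.8%, 21.2% and 17.8%). The p3 pair held 5 NP samples and each other pair 6, so the NMPs weighed more in its filter. The part of this in the p3 count was not tested. The median log2 fold change over all tested elements was itself below 0 in these pairs, at -0.40, -0.51, -0.49 and -0.46. When each sample was centred on its median instead, 28 of the 59 elements were lower and 17 higher, and with voom and TMM factors 25 were lower and 16 higher. Over all tested elements, the same step moved the split from 10273 lower and 8632 higher to 7109 lower and 9242 higher, and to 5771 and 9402 with voom. In bulk sorted libraries, fewer cells with an open element and less signal per cell cannot be told apart.

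The calls are given here by the position of the element, beside the shares over all tested elements at the same position. Of the 10 TSS elements, 5 were lower at day 4 and 0 higher, and of the TSS elements of all genes 26.2% were lower and 3.6% higher. Of 9 other tested elements within 10 kb, 8 were lower and 1 higher (47.3% and 20.9% of all). Between 10 and 100 kb, 32 were tested, of which 19 were lower and 11 higher (32.3% and 39%). Beyond 100 kb 4 of 8 were lower and 3 higher (15.9% and 67.2%). Of 28 tested intergenic elements, 22 were lower and 5 higher (32.1% and 39.3% of all). The difference between the loci and all elements was not tested.

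**Figure D1:**
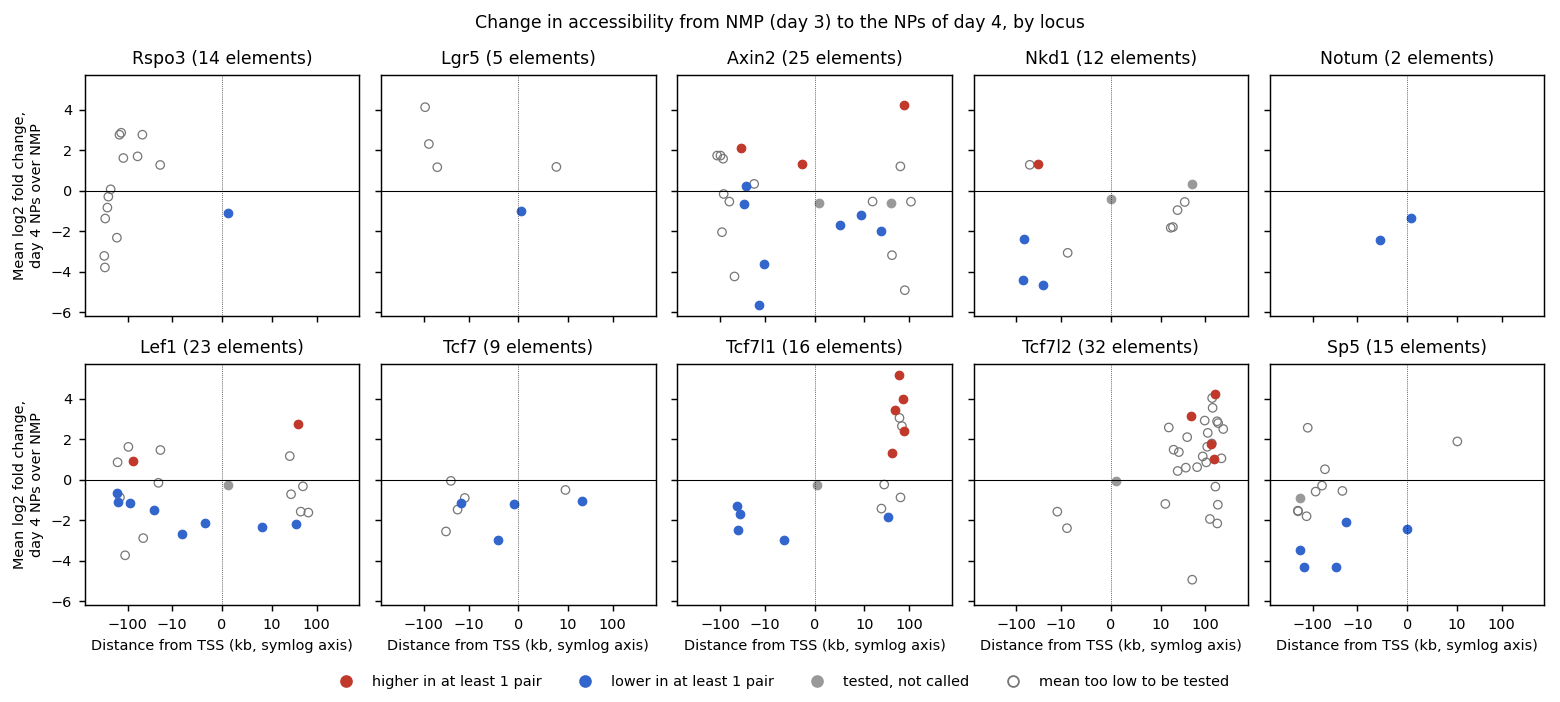
Mean log2 fold change from NMPs to day 4 over the 4 pairs (y axis) for the elements of the 10 loci, by distance of the element centre from the TSS (x axis, kb, symmetric log scale). Red and blue mark elements higher or lower at day 4 in at least 1 pair, grey those tested and not called, and open circles those below the filter. The elements nearest to a TSS sit at or below 0, and both directions appear among distal elements. Axin2 -26368 is marked as lower because of p3 alone and sits near 0 in the mean.

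One library of day 4 stood apart at the TSS elements. The p0-1 library from 10 nM SAG, replicate 3, had the highest value of the 6 p0-1 libraries at all 10 of them, with 535 normalized counts at Rspo3 (the others 234 to 347), 1172 at Lgr5 (508 to 768), 1543 at Notum (662 to 1104) and 1051 at Tcf7 (435 to 706). These 4 elements were short of the fold limit between NMPs and p0-1 with this library and past it without it, where their log2 fold changes were -1.14, -1.06, -1.16 and -1.10 (limma, adjusted p = 7.5e-06, 1e-05, 2.5e-05 and 1.9e-05). The values for p0-1 given below include it.

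Rspo3 encodes a secreted R-spondin that amplifies Wnt signaling, and Lgr5 encodes a receptor for R-spondins. At the only Rspo3 element tested, in the opening intron (+1262), the NMP samples had 621, 665 and 715 normalized counts and the 23 day 4 samples 234 to 535 (median 305). The groups did not overlap. The log2 fold change was -0.96 in p0-1, short of the 2-fold limit, and -1.20, -1.13 and -1.16 in p2, pMN and p3 (limma, adjusted p = 8.6e-07, 1e-07 and 1.1e-06). The Lgr5 element at +581, also in the opening intron, had 1247, 1385 and 1453 counts in NMPs and 508 to 1172 (median 680) at day 4. These groups did not overlap either. The log2 fold change was -0.88 in p0-1 and -1.14, -1.02 and -1.05 in the other types (limma, adjusted p = 1.9e-07, 2.9e-07 and 7e-07). Both elements fell short of the 2-fold limit in each pair when samples were centred on their medians, where the log2 fold changes in p2, pMN and p3 were -0.90, -0.84 and -0.83 for Rspo3 and -0.84, -0.74 and -0.73 for Lgr5.

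Axin2, Nkd1 and Notum encode negative feedback regulators of the pathway: a scaffold of the beta-catenin destruction complex, a Dishevelled-binding protein and a secreted carboxylesterase that deacylates Wnt ligands. Their TSS elements changed to different degrees. The Axin2 element at +825 had 2882, 3069 and 3887 counts in NMPs and 1543 to 3339 (median 2076) at day 4, and the groups overlapped. It passed the fold limit in no pair (log2 fold change -0.51, -0.69, -0.51 and -0.79 in p0-1, p2, pMN and p3). The Nkd1 element at -46 also overlapped between NMPs (1125, 1381 and 1508) and day 4 (790 to 1519, median 957), with log2 fold changes of -0.28 to -0.54. At the Notum element at +680, an exonic one, NMPs had 1601, 2065 and 2227 counts and day 4 samples 532 to 1543 (median 743) without overlap. The log2 fold change was -0.99 in p0-1, which was not called, and -1.46, -1.40 and -1.50 in p2, pMN and p3 (limma, adjusted p = 4e-07, 2.2e-07 and 6.8e-08). With voom, the Notum fall was below 2-fold in p2 (-0.95) and pMN (-0.93).

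Elements upstream of these feedback genes lost far more signal. The intergenic element Axin2 -13371 had 461, 731 and 757 counts in NMPs, 2.63 to 21.5 (median 13.3) at day 4, 0 to 10.3 at day 5 and 1.65 to 12.8 at day 6. The highest NP sample of any day was far below the lowest NMP sample. The log2 fold change at day 4 was -5.56 ± 0.28 (SE) in p0-1, -5.63 ± 0.19 in p2, -5.43 ± 0.18 in pMN and -6.05 ± 0.29 in p3 (limma, adjusted p = 4.6e-09, 1.2e-11, 5.1e-12 and 1e-10). Its neighbour Axin2 -10381, with 801, 914 and 1438 counts in NMPs, changed by -3.33, -3.67, -3.64 and -3.81 on the log2 scale. At Nkd1 -25850, NMPs had 675, 823 and 1031 counts and day 4 samples 22.6 to 57.3 (median 30.7), again without overlap. The log2 fold changes were -4.99 ± 0.19, -4.61 ± 0.18, -4.42 ± 0.19 and -4.69 ± 0.19 (limma, adjusted p = 3.5e-10, 3.2e-11, 2.2e-11 and 4.4e-12). A further upstream element, Nkd1 -70020, changed by -4.20 to -4.73. Notum -5406, the other element of its locus, had 295, 303 and 317 counts in NMPs and 30 to 99.8 (median 54.5) at day 4, and its log2 fold changes were -2.21, -2.39, -2.24 and -2.99.

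At the same feedback loci other elements opened. Axin2 +75077, intergenic and downstream of the gene, had 14.5, 16.2 and 18.9 counts in NMPs and 179 to 452 (median 303) at day 4, with log2 fold changes of 4.13 ± 0.22, 4.13 ± 0.17, 4.34 ± 0.20 and 4.28 ± 0.24 (limma, adjusted p = 1.1e-08, 1.1e-10, 1.5e-10 and 9.4e-10). It went on rising in every NP type. Axin2 -2587 rose in p0-1, p2 and p3 (1.60, 1.31 and 1.43) and was at 0.91 in pMN, and Axin2 -34630, tested in p0-1 only, rose by 2.87. Nkd1 -32572 had 99.1, 124 and 125 counts in NMPs and 259 to 504 (median 338) in the 18 p0-1, p2 and pMN samples of day 4, without overlap. It rose in these types (1.67, 1.78 and 1.43) but was at 0.35 in p3 (limma, adjusted p = 0.1), where the 5 samples had 115 to 174 counts. In p3 at day 4 it was lower than in p0-1, p2 and pMN (-1.32, -1.42 and -1.08).

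**Figure D2:**
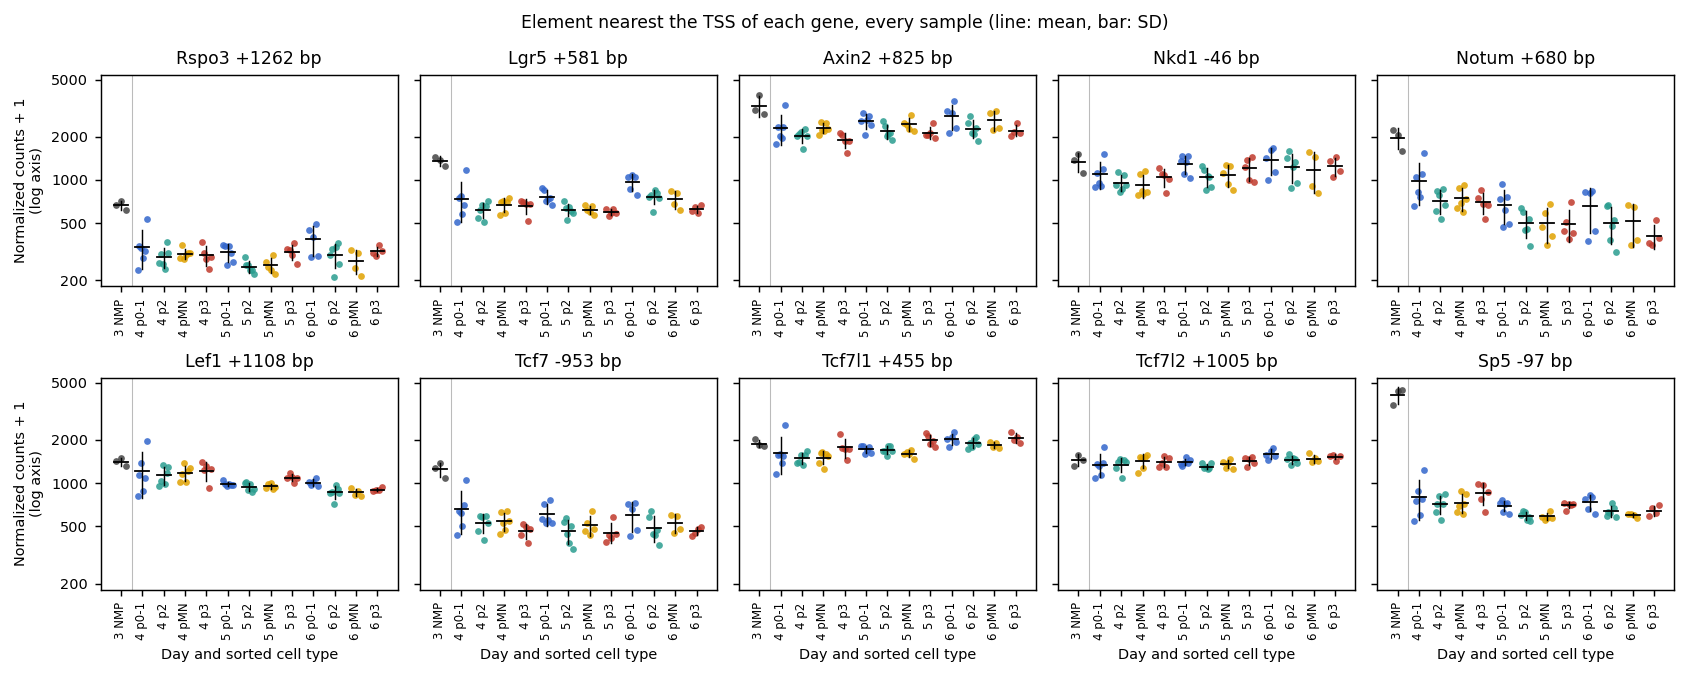
Normalized counts plus 1 (log axis) in every sample for the element nearest to the TSS of each gene, by day and sorted cell type; lines are means and bars SDs, with the lower end stopped at 0 counts. The Sp5 element drops from 3490 or more in NMPs to 1244 or less in every NP sample, whereas the NMP samples at Lef1, Tcf7l1 and Tcf7l2 lie within or close to the range of the NP samples.

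The 4 TCF/LEF genes differed from each other. Lef1, Tcf7 and Tcf7l1 encode, in turn, a factor that mostly acts as an activator and is itself a Wnt target, its paralogue TCF1, and TCF3, the family member that mostly represses, while Tcf7l2 encodes TCF4. The TSS element of Tcf7 (-953) had 1087, 1274 and 1374 counts in NMPs and 383 to 1051 (median 524) at day 4, without overlap. Its log2 fold change was -0.92 in p0-1, not called, and -1.24, -1.20 and -1.43 in p2, pMN and p3 (limma, adjusted p = 4.7e-07, 3.1e-07 and 2.6e-08). Centred on medians, it passed the fold limit in p3 only, and with voom in none of the pairs (-0.74, -0.73 and -0.98). The TSS elements of Lef1 (+1108), Tcf7l1 (+455) and Tcf7l2 (+1005) overlapped between NMPs and day 4. Their log2 fold changes lay between -0.20 and -0.32, -0.09 and -0.34, and -0.03 and -0.11, all below the fold limit.

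Away from the TSS, the tested Tcf7 and Lef1 elements mostly closed and the tested Tcf7l2 elements, a small part of that locus, opened. All 4 tested Tcf7 elements and 8 of 11 at Lef1 were lower at day 4 in at least 1 pair. Tcf7 -4081 had 435, 552 and 658 counts in NMPs and 48.6 to 95.6 (median 70.8) at day 4, with log2 fold changes of -2.70, -2.97, -3.06 and -3.15 (limma, adjusted p = 1.9e-08, 1.4e-09, 1.4e-10 and 3.3e-10). Lef1 -7952 had 339, 450 and 589 counts in NMPs and 28.3 to 118 (median 73.1) at day 4. It changed by -2.42, -2.44, -2.66 and -3.21 and was at 33.4 counts or less at days 5 and 6. Neither pair of groups overlapped. Lef1 +37731, in intron 3 of the gene, moved the other way: NMPs had 20.6, 24.8 and 25.6 counts and day 4 samples 46 to 296 (median 168). It rose by 3.17 in p2 and 3.42 in pMN (limma, adjusted p = 7.8e-08 and 3.3e-11) and was not tested in p0-1 and p3.

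At Tcf7l1, 5 of 11 tested elements were higher at day 4 and 5 lower. The higher ones included 4 elements in 1 intron, intron 3 of the gene. Tcf7l1 +58373 had 28.3, 31.2 and 32.7 counts in NMPs and 906 to 1439 (median 1115) at day 4, and its log2 fold changes were 5.18 ± 0.15, 5.19 ± 0.10, 5.21 ± 0.10 and 5.17 ± 0.15 (limma, adjusted p = 8.4e-11, 1.3e-13, 2.4e-14 and 1e-13). The 4 NP types lay within each other's range at this element at day 4. The neighbouring elements +74526, +48401 and +77279 rose by 3.82 to 4.68, 3.24 to 4.31 and 2.12 to 2.76 in the pairs where they were tested. Upstream of the same gene, Tcf7l1 -6230 had 267, 281 and 300 counts in NMPs and 19.6 to 66.6 (median 36.4) at day 4, and it changed by -2.89, -3.14, -3.15 and -2.66.

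At Tcf7l2, only 5 of the 32 elements were tested, of which 4 were higher at day 4 and 0 lower. Some untested elements had more signal in NMPs. Elements +50789 and -8835 had 155 to 332 and 107 to 185 counts there, and means of 18.2 and 26.6 over all 67 samples. Tcf7l2 +161322 had 14.8, 26.7 and 31.2 counts in NMPs and 222 to 762 (median 460) at day 4, with log2 fold changes of 3.96 ± 0.26, 4.48 ± 0.17, 4.79 ± 0.15 and 3.60 ± 0.20 (limma, adjusted p = 5.7e-08, 2.5e-11, 1.1e-12 and 4.7e-10). Tcf7l2 +47142 rose by 2.93, 3.22, 3.36 and 2.96. Tcf7l2 +135622, in intron 4, had 47.2, 50.6 and 63 counts in NMPs and 80.7 to 406 (median 181) at day 4, and rose by 1.35, 1.89, 2.25 and 1.47. NMP and day 4 samples overlapped at neither +161322 nor +135622.

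Sp5 encodes a zinc-finger factor induced directly by Wnt signaling. Its TSS element (-97), which reaches across the gene, had 3490, 4355 and 4479 counts in NMPs and 544 to 1244 (median 756) at day 4. The groups did not overlap, and the levels were 543 to 763 at day 5 and 573 to 820 at day 6. Of the 10 TSS elements it fell most, with log2 fold changes of -2.36 ± 0.22, -2.53 ± 0.12, -2.50 ± 0.12 and -2.28 ± 0.14 (limma, adjusted p = 3e-07, 1.1e-10, 4.6e-11 and 2.6e-10). Of the 6 tested Sp5 elements, 5 were lower and 0 higher. Sp5 -30699 changed by -4.29, -4.27, -4.42 and -4.23, and Sp5 -156338, inside an intron of Myo3b, changed by -3.92 in p3, the only pair in which it was tested. Sp5 -156338 passed the filter through its NMP level alone, so only a fall could be called. It had 153, 251 and 349 counts in NMPs and 5.52 to 23.3 in the NP samples of day 4. Over the means of the 25 conditions, which share their libraries and scaling, the elements of the annotation's promoter class most like Sp5 -97 were Krtcap3 -145 (Pearson r = 0.980), Klc3 -4907 (0.978), Ecm1 -379 (0.977), Npm3-ps1 -946 (0.975) and Dmtn -5948 (0.972).

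Over the 10 loci, 44 elements were tested in all 4 pairs, of which 19 were lower and 7 higher in all 4, where 21.8% and 13% of all elements tested in all 4 were. The pairs share the NMP samples. 0 elements were higher in one pair and lower in another. The median of the mean log2 fold changes of the 10 TSS elements was -0.83, while it was -0.42 over the 7139 elements of the series in the annotation's promoter class that had a mean above 100. Of the 10, only those of Tcf7, Sp5 and Nkd1 belong to that class, and the others are intronic or exonic, so the sets differ in kind. These values describe the elements and carry no test of the loci as a group.

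**Figure D3:**
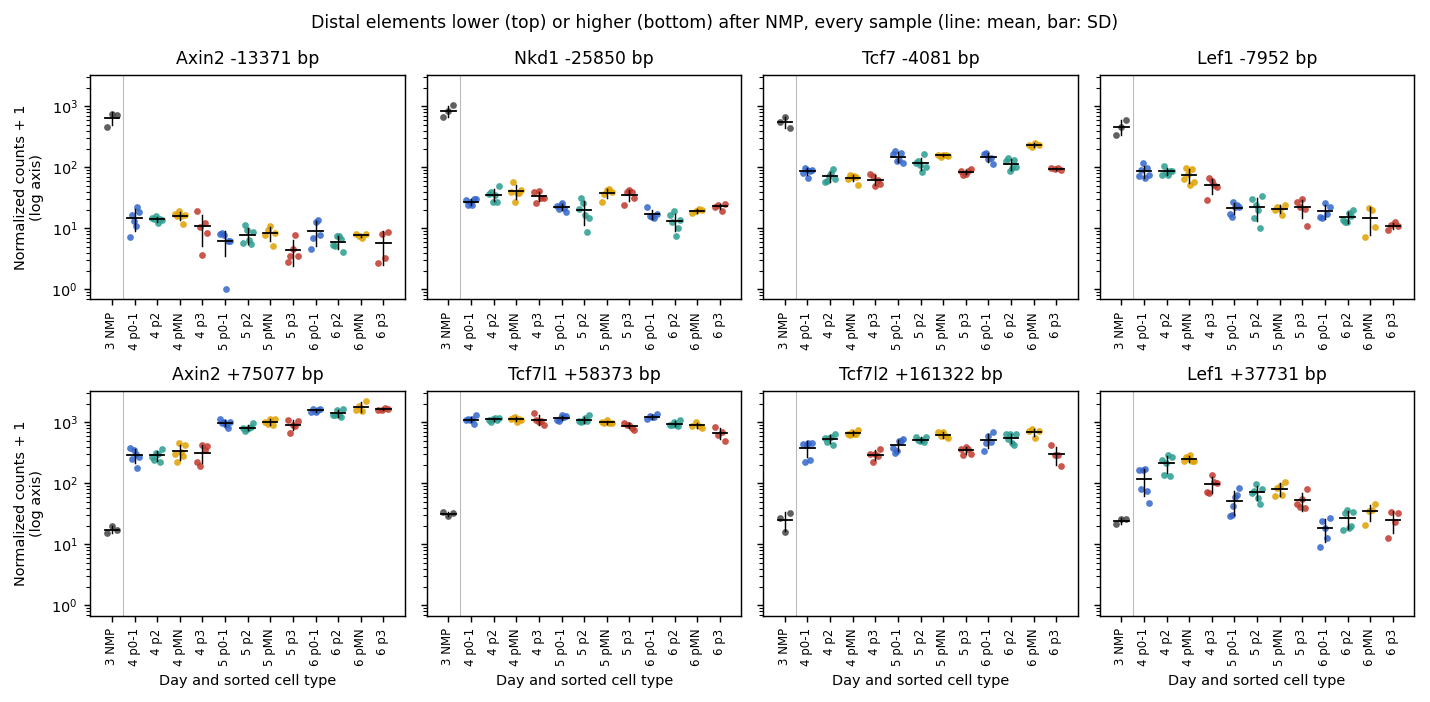
Normalized counts plus 1 (log axis) in every sample for 4 distal elements that were lower after NMPs (top) and 4 that were higher (bottom), by day and sorted cell type; lines are means and bars SDs, with the lower end stopped at 0 counts. Axin2 -13371 falls from 461 to 757 in NMPs to 21.5 or less, Axin2 +75077 rises at each day, and Lef1 +37731 rises to 46 to 296 at day 4 and falls to 8.24 to 44.4 at day 6.

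Between day 4 and day 5, fewer elements changed. Of 48 tested in at least 1 NP type, 10 were higher at day 5, where 19.5% of all tested elements were higher, and 4 were lower (6.01%). Axin2 +75077 was the only one of them called in all 4 types. It went from 179 to 452 counts at day 4 to 681 to 1154 at day 5, without overlap, with log2 fold changes of 1.75, 1.51, 1.62 and 1.52 in p0-1, p2, pMN and p3 (limma, adjusted p = 8.1e-07, 4.6e-08, 1.8e-07 and 4.6e-05). At day 6 it reached 1246 to 2254 counts. Tcf7l2 +135622 rose in p0-1, p2 and pMN (1.96, 1.51 and 1.31), from 95.9 to 406 counts in the 18 samples of these types at day 4 to 337 to 838 in 17 samples at day 5, and the ranges overlapped slightly. The 5 p3 samples of day 5 had 152, 118, 257, 115 and 151 counts at this element.

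Other changes were seen in some types. Lef1 -90007, far upstream of the gene, rose in p2 and pMN (1.58 and 1.63) and Axin2 +38816 in the same types (1.10 and 1.54), while Tcf7 -4081 rose in pMN (1.25). Tcf7l2 +182212 rose in p0-1 (1.25) and Tcf7l2 +192654 in p0-1 and p2 (1.27 and 1.31). Lgr5 -77095 rose in p0-1 (1.06). The 4 elements that fell were Lef1 +37731 in p2 and pMN (-1.58 and -1.65), Nkd1 +49074 in p2 (-1.05), Axin2 -2587 in p2 (-1.06) and Lef1 -174282 in p3 (-1.64). In p3, Tcf7l2 +139054 rose by 2.07 and Tcf7l2 +145018 by 1.34. The change of Lgr5 -77095 was below 2-fold when samples were centred on their medians (0.84).

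Between day 5 and day 6, 2 of 49 tested elements were higher (5.61% of all tested) and 1 was lower (2.85%). Nkd1 +49074, in an Nkd1 intron, fell in p0-1, p2 and pMN, from 134 to 463 counts in the 17 samples of day 5 to 67.6 to 229 in 15 samples of day 6 (log2 fold change -1.12, -1.09 and -1.05, limma, adjusted p = 0.00032, 0.00059 and 0.0015). Within each of these types the ranges of the days did not overlap. Tcf7l2 +135622 rose again in p0-1, by 1.36, and Sp5 -53287 rose in p3, by 1.2 (limma, adjusted p = 0.0033). Replicate numbers paired the samples of these days, and with the replicate as a block 6 elements were called, where 10.7% of all tested were. The 3 added ones were Axin2 -34630 (-1.19) and Axin2 -2587 (-1.16), both lower in p0-1 at day 6, and Sp5 -137352, higher in p3 (1.48). Titles and descriptions disagree on the replicate number of 15 samples, and with the numbers of the descriptions 4 elements were called (9.03% of all tested), of which only Sp5 -137352 was added.

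The p3 progenitors, the most ventral type and the neighbours of the floor plate, differed from the others at part of the Wnt loci. The counts of called elements rose from day 4 to day 6, and so did the shares of all tested elements. At day 4, 7 of 37 tested elements were lower in p3 than in at least 1 other NP type (7.56% of all tested) and 2 were higher (3.95%). At day 5, 10 of 44 were lower (17.5%) and 4 higher (9.65%). At day 6, 13 of 45 were lower (20.9%) and 7 higher (14.2%). At days 5 and 6 the shares of higher elements lie near those of all tested elements. The 3 pairs of a day share the p3 samples. Beside these results, the summed level of the TSS elements of 4 floor plate markers, 4 of 4 with an element, was 2729 to 3448 counts in p3 at day 6, against 2006 to 2876, 1972 to 2288 and 2082 to 2389 in p0-1, p2 and pMN, and 2249 to 2563 in p3 at day 5. The element nearest to the Shh TSS, at -2800 bp, had 193 to 377 counts in p3 at day 6. The summed level of 4 paraxial mesoderm markers (4 of 4 with an element) was 1987 to 2320 in p3 at day 6, against 1621 to 1938, 1376 to 1695 and 1496 to 1827 in p0-1, p2 and pMN. Of these, Meox1 (mean 855.8) and Msgn1 (121, at an element far from its TSS) were highest in p3. Tbx6 was lowest in p3 (692.5), and Foxc2 was lower there (458.2) than in p0-1 and p2. The summed level of 5 neuron markers (5 of 5) was 2946 to 4423 in p3, against 2083 to 3430, 2744 to 5744 and 4762 to 5515. The part of these cells in the p3 results was not tested.

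Inside Tcf7l2, 2 elements rose in p3. Tcf7l2 +139054, whose FOXA core is printed above, had 6.06, 9.44 and 9.69 counts in NMPs and 43.6 to 95.2 in the 5 p3 samples of day 4. At day 5 p3 had 295, 260, 317, 278 and 399 counts, and at day 6 it had 346, 531, 331 and 578. The other NP samples had 15.5 to 100 (median 44.2) at day 5 and 15.3 to 161 (median 42.8) at day 6, below every p3 sample. Against p0-1, p2 and pMN the log2 fold change was 3.65, 2.71 and 2.11 at day 5, and 4.11 ± 0.24, 3.23 ± 0.24 and 2.10 ± 0.30 at day 6 (limma, adjusted p = 7.5e-07, 1.3e-06 and 0.00035). A few kb downstream, Tcf7l2 +145018 had 176, 298, 150 and 299 counts in p3 at day 6 and 53.8 to 190 (median 78) in the others, and these ranges overlapped. It was higher in p3 than in p2 and pMN (1.35 and 1.30). The difference from p0-1, 1.14, was not called as fitted, and it was called with the replicate block (limma, adjusted p = 0.00012), with samples centred on their medians (1.25), in 1 fit over all samples, and without p0-1 replicate 3 of either SAG dose or p3 at 500 nM replicate 2 (1.28 to 1.30).

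Other Tcf7l2 elements showed the opposite pattern. Tcf7l2 +135622 had 277, 227, 111 and 133 counts in p3 at day 6, against 788 to 1640 (median 1095) in the other types, without overlap, and the log2 fold change was -2.86 ± 0.25, -2.54 ± 0.20 and -2.51 ± 0.27 (limma, adjusted p = 4.8e-06, 1.2e-06 and 5.2e-05). Towards the end of the gene, Tcf7l2 +192654 had 28.9 to 54.4 counts in p3 and 93.4 to 258 (median 173) in the others. It was lower than in p0-1 and p2 (-2.35 and -2.36). Tcf7l2 +182212 was lower than in all 3 other types (-1.58, -1.22 and -1.42). The +135622, +139054 and +145018 elements lie in the same intron, intron 4. The Tcf7l2 TSS element had 1430 to 1564 counts in p3 and 1333 to 1765 in the others at day 6.

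At Tcf7l1, p3 was higher at 3 elements by day 6. Tcf7l1 +48401 had 241, 598, 341 and 647 counts in p3 and 26 to 216 (median 66.8) in the others, without overlap, and log2 fold changes of 2.61 ± 0.35, 2.39 ± 0.40 and 2.89 ± 0.38 (limma, adjusted p = 0.00022, 0.00041 and 0.00031). It was already higher in p3 than in p2 and pMN at day 4 (1.08 and 1.52). Tcf7l1 +77279 had 1746, 1963, 1626 and 1998 counts in p3 and 608 to 1404 (median 860) in the others, again without overlap, and was called against p0-1 and p2 (1.16 and 1.19). Tcf7l1 +40810 was called against p0-1 (1.51).

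**Figure D4:**
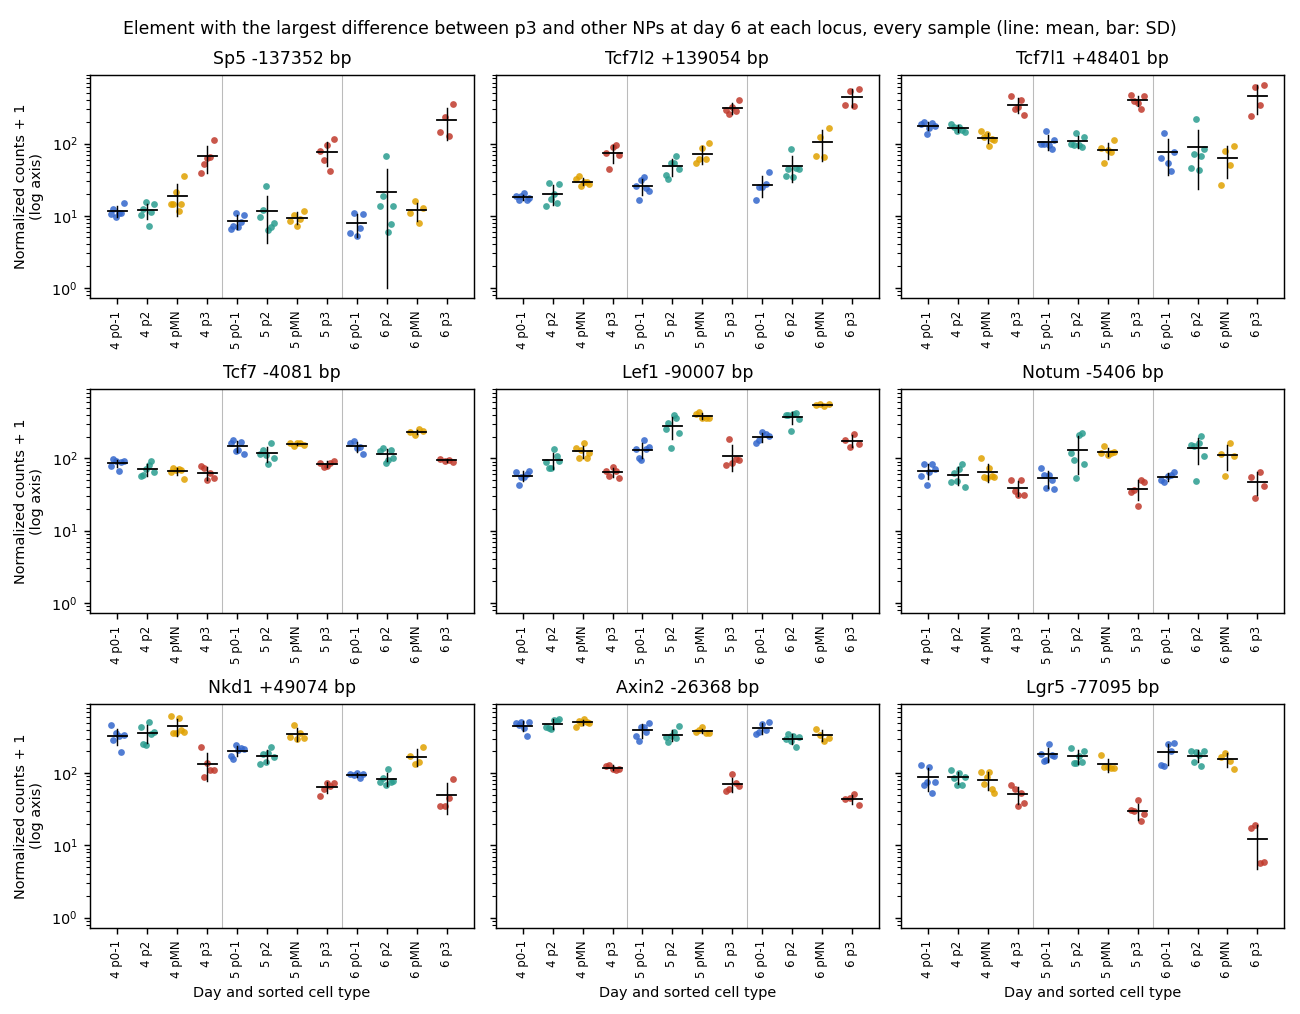
Normalized counts plus 1 (log axis) in every sample for the element of each locus that differed most between p3 and other NPs at day 6, ordered from higher to lower in p3, by day and sorted cell type; lines are means and bars SDs, with the lower end stopped at 0 counts. At Tcf7l2 +139054 the p3 samples of day 6 sit at 331 to 578, above the other types (15.3 to 161), and at Lgr5 -77095 they sit at 4.62 to 18.3, below the other types (113 to 259).

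Intergenic elements upstream of Lgr5 and Axin2 were lower in p3 at days 5 and 6. Lgr5 -77095 had 34.2 to 66.6 counts in p3 at day 4, then 29.6, 29.3, 41.3, 20.4 and 25.8 at day 5, and 16.5, 18.3, 4.62 and 4.86 at day 6. The other types had 117 to 253 (median 149) at day 5 and 113 to 259 (median 176) at day 6, without overlap on either day. The log2 fold change against p0-1 and p2 was -2.62 and -2.53 at day 5, and -4.12 ± 0.31 and -3.97 ± 0.26 at day 6 (limma, adjusted p = 9.7e-06 and 1.4e-06). Against pMN the joint mean was below the filter and no test was made. Axin2 -26368, intergenic, had 123, 131, 112, 111 and 114 counts in p3 at day 4, 54.7 to 95 at day 5 and 42.9, 43.7, 50.8 and 35 at day 6. The others had 324 to 564, 271 to 502 and 227 to 509 on these days, above every p3 sample. Its log2 fold changes were -1.94, -2.03 and -2.09 at day 4 and -3.28 ± 0.16, -2.80 ± 0.15 and -2.96 ± 0.16 at day 6 (limma, adjusted p = 2.2e-07, 1.5e-07 and 4.5e-06). Leaving out 1 library dropped Lgr5 -77095 below the filter in some pairs: this held at day 6 for p2 replicates 1 and 3 at 100 nM, p2 replicate 3 at 10 nM and p0-1 replicates 1 and 3 at 10 nM.

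Other elements were lower in p3 against part of the types. At day 6, Nkd1 +49074, Tcf7 -4081, Axin2 +38816 and Lef1 -90007 were lower than in pMN (-1.80, -1.33, -1.25 and -1.66), and Notum -5406 was lower than in p2 (-1.56). Axin2 -2587 was higher in p3 than in all 3 types (1.36, 1.54 and 1.03). At Sp5, an element inside an intron of Myo3b had most signal in p3: Sp5 -137352 had 143, 230, 128 and 350 counts in p3 at day 6 and 4.23 to 66.3 (median 9.86) in the others, without overlap. In NMPs this element had 57, 67.4 and 76.5 counts. At day 4 its means in p3 were 50.9 at 100 nM and 87.5 at 500 nM SAG, and the others had 6.31 to 34.9. At day 6 it passed the filter against pMN only (4.29 ± 0.31, limma, adjusted p = 2.6e-05), where leaving out p3 replicate 3 of either SAG dose took it below the filter. Sp5 -53287, inside the same gene, had 147, 115, 165 and 190 counts in p3 at day 6 and 1.94 to 55.9 (median 7.06) in the others, and its mean was below the filter in each pair of types. The Sp5 TSS element overlapped between p3 (585 to 698) and the others (573 to 820).

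The library of p2 from 100 nM SAG, replicate 3, at day 6 was nearer to p3 than the other p2 libraries at several of these elements. It had 84.4 counts at Tcf7l2 +139054 (the other 5 had 33.4 to 45.3), 190 at Tcf7l2 +145018 (53.8 to 106), 216 at Tcf7l1 +48401 (41.6 to 83.7) and 66.3 at Sp5 -137352 (4.89 to 17.8). Its Shh element had 130 counts, against 50.9 to 86.9 in the other p2 libraries, and its summed neuron markers 2744, against 4340 to 5744. Without it, Sp5 -137352 was also called between p2 and p3 (4.28), and 22 elements in place of 20 were called between p3 and the others. Also called without it were Axin2 +38816 (-1.02) and Tcf7l1 +40810 (1.12) between p2 and p3, Axin2 -2587 from day 5 to day 6 in p2 (-1.19) and Notum -5406 between p0-1 and p2 (1.51). Lgr5 -77095 then fell below the filter between p2 and p3, and Tcf7 -4081 and Nkd1 +49074 fell just below the fold limit between p2 and pMN (both 0.99).

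Few elements of the Wnt loci differed among the p0-1, p2 and pMN progenitors, and few of all tested elements did. At day 4, 2 of 39 tested elements were higher in the more ventral type (3.23% of all tested) and 0 lower (0.54%). These were Lef1 -75812 and Lef1 +37731, higher in pMN than in p0-1 (1.04 and 1.10), and without the library of pMN from 100 nM, replicate 1, 0 were called. At day 5, 3 of 44 were higher (7.17%) and 0 lower (4.52%). Lef1 -90007 had 94.1 to 176 counts in p0-1, 140 to 398 in p2 and 413, 441, 359, 356 and 367 in pMN. It was higher in p2 than in p0-1 (1.11) and in pMN than in p0-1 (1.58, limma, adjusted p = 2.5e-06), and only the p0-1 and p2 ranges and the p2 and pMN ranges overlapped. Axin2 +38816 and Lef1 -75812 were higher in pMN than in p0-1 (1.33 and 1.17), and with the replicate block Axin2 +38816 was also higher in p2 than in p0-1 (1.04). At day 6, 4 of 40 were higher (10.5%) and 0 lower (3.78%). Axin2 +38816 and Lef1 -90007 were higher in pMN than in p0-1 (1.17 and 1.48), and Tcf7 -4081 and Nkd1 +49074 were higher in pMN than in p2 (1.06 and 1.04). The summed neuron markers were higher in pMN than in p0-1 at days 5 and 6. At day 5 their medians were 2341 in p0-1, 3426 in p2 and 4147 in pMN, and at day 6 they were 2850, 5059 and 5146, with no overlap between p0-1 and pMN on either day. Between p2 and pMN at day 6 their ranges overlapped (2744 to 5744 and 4762 to 5515). There the mean levels of Tubb3, Dcx and Stmn2 were higher in p2, and those of Elavl3 and Elavl4 in pMN. The part of neurons in these results was not tested.

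Whether the loci responded to the SAG dose within a sorted type was examined in 12 pairs, with 33 to 45 of the elements tested in each. With limma, 0 were called in any pair, and over the whole series 1 element of 49264 was called (0.00203%). At an unadjusted p below 0.05 stood 28 of the 455 tests of Wnt-locus elements (6.15%), between 0 and 9 in a pair, and 5.82% of all tests. With voom, 0 were called as well. With the replicate number as a block, 2 elements and 5.97% of all tested were called (4.95% with the numbers of the descriptions, and again 2 elements). These were Axin2 -116640, higher at 10 nM than at 0 nM SAG in p0-1 of day 6 (1.34, limma, adjusted p = 9.3e-09), and Tcf7l2 +135622, lower at 500 than at 100 nM in p3 of day 6 (-1.05, limma, adjusted p = 1.7e-06).

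The change from day 4 to day 6 differed between p3 and pMN at 5 of 43 tested elements, where 10.2% of all tested elements differed. The difference is the p3 change minus the pMN change on the scale of the deposited log2 values. It was positive at Tcf7l1 +74526 (1.62 ± 0.24), Tcf7l1 +77279 (1.15 ± 0.14) and Nkd1 -32572 (1.08 ± 0.18), and negative at Tcf7l2 +135622 (-1.74 ± 0.42) and Tcf7 -4081 (-1.14 ± 0.19), with adjusted p from 1.3e-05 to 0.0045 in limma. At Tcf7l1 +74526, p3 had 94.9, 83.4, 129, 137 and 118 counts at day 4 and 170, 230, 143 and 217 at day 6, while pMN had 256 to 342 at day 4 and 163, 197, 105 and 186 at day 6. With the replicate as a block, 8 elements were called (13.1% of all tested), and the added ones were Tcf7l1 +48401 (1.33), Tcf7l2 +139054 (1.04) and Lef1 +37731 (1.00). With the numbers of the descriptions, 5 were called (11.2%) and none of these 3 was added. Without the library of p3 from 100 nM, replicate 2, at day 6, 8 elements were called, and without pMN replicate 2 of either dose or replicate 3 of 100 nM, 3 were.

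**Figure D5:**
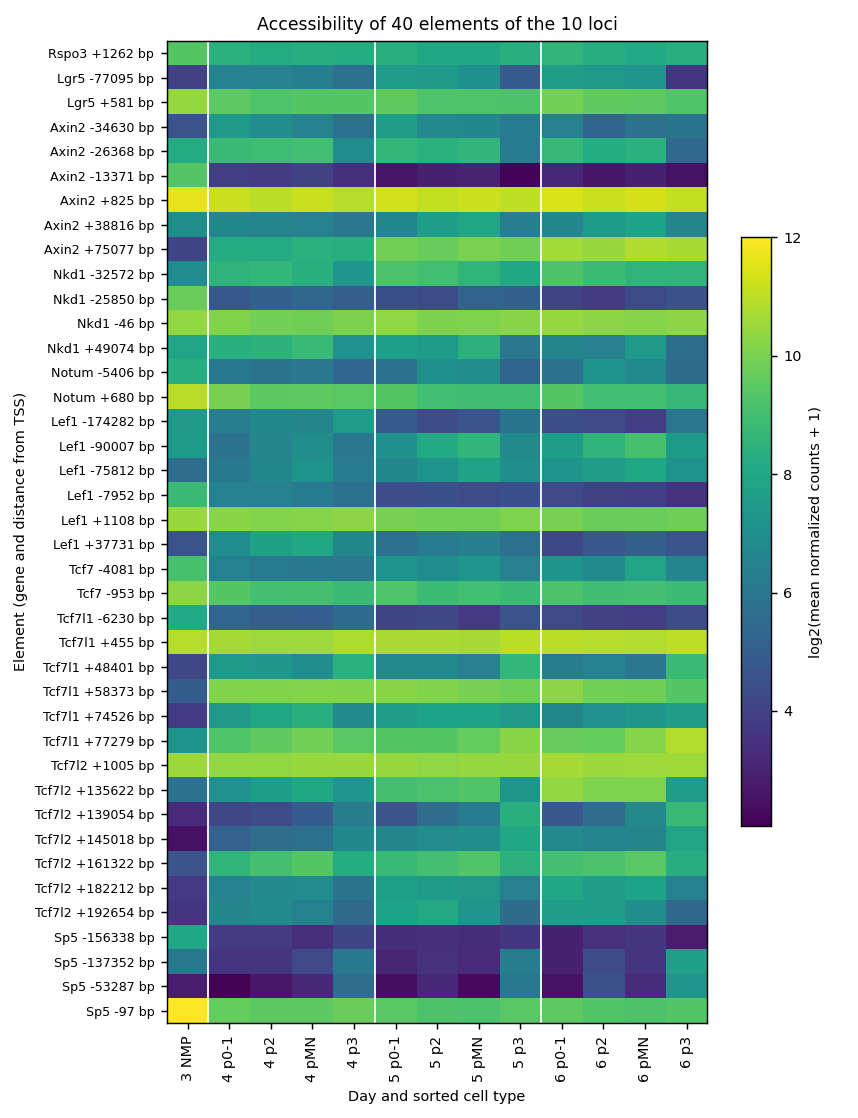
Levels of the 40 named elements in the 13 combinations of day and sorted type, as log2 of the mean normalized count plus 1 (colour scale), with elements ordered by gene and distance. Elements such as Axin2 -13371 and Nkd1 -25850 are bright in the NMP column, Tcf7l1 +58373 and Axin2 +75077 are dark there, and the p3 columns differ from their neighbours at Tcf7l2 +139054, Lgr5 -77095 and Axin2 -26368.

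The 62 elements called in at least 1 comparison came from the 72 that were tested in at least 1, and 81 of the 153 had too low a mean over the compared samples for any test. Of the 153, 41 had a mean above 100 normalized counts over all 67 samples. These were 9 elements of Tcf7l2, 8 of Axin2, 7 of Tcf7l1, 5 of Lef1, 4 of Nkd1, 2 each of Tcf7, Sp5 and Lgr5, and 1 each of Notum and Rspo3.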

How the data were processed

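CaTS-ATAC libraries of 67 samples (NMPs, and p0-1, p2, pMN and p3 NPs) were analysed. Per the labels and the methods, the authors ran the nf-core/atacseq workflow against mm10, called peaks with MACS, counted reads per consensus element and normalised with DESeq2. The deposited values are log2-scale variance-stabilised counts, with the authors' HOMER annotation giving the nearest gene of each element. The annotation lists 192 elements for the 10 genes, 39 of which have no deposited value and were not analysed here. The transformation was inverted to normalized counts and reads, and 100% of values below 1000 reads came out whole (largest distance 5.98e-11). Depth per sample was the sum of these reads.

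Groups were compared with limma 3.58.1 in R 4.3.3 (linear model on the deposited log2 values, moderated variance with trend) across every element whose mean over the compared samples exceeded 100 normalized counts, with Benjamini-Hochberg adjustment. The pairs were NMPs against each day 4 type, successive days, NP types within a day, SAG doses within a type, and the day 4 to day 6 change of p3 against pMN. A call needed an adjusted p below 0.01 and a fold above 2. Pairs of one family share samples. The 2 SAG doses of a type were pooled as separate samples, so a group of 6 holds the same replicate numbers at both doses. Same-numbered samples of the 2 doses deviated together (median r 0.740 of 30 pairs). The SEs and p-values of fits without a block take no account of this. The test was checked on simulated data.

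Elements named by rule were the TSS element of each gene, the largest rise and fall at day 4, the largest p3 difference at day 6, the 3 largest changes each way from day 4 to 6, calls in comparisons with 5 or fewer, and elements whose change differed between p3 and pMN; others were named after their values were seen. The members and lists were chosen with earlier results of these data known. Replicate numbers come from the titles, and in 15 samples the description gives another number, so both were tried. Same-numbered samples deviated together (every pair above 0.1) between days 5 and 6 (lowest r 0.380 of 10 pairs), for p3 at days 5 and 6, among the other types at each day, and for the p3 to pMN difference (lowest 0.108 of 13). Sequences and motif matches came from the mm10 reference through pysam 0.24.0, in the central 300 bp. Alternatives were a log2 fold above 2, no filter, a minimum of 30, replicate blocks, median centring, voom with TMM factors, no variance trend, 1 fit over all samples, and each library left out.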

Additional observations from a re-analysis of the deposited data

Results flagged for a closer look

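Among 480 groups of 4 to 6 samples tested (the named elements in each NP type and day), 19 had 1 sample far from the others by Dixon's test, where chance alone gives about 1 in 20. Of these, 4 concern the p2 library from 100 nM SAG, replicate 3, of day 6: it had 77.9 normalized counts at Axin2 -34630 (the others 24.6 to 37.7), 90.9 at Axin2 +38816 (165 to 235), 239 at Lef1 -90007 (352 to 421) and 84.4 at Tcf7l2 +139054 (33.4 to 45.3). At day 4, p2 at 10 nM replicate 1 had 1632 at Axin2 +825 (2032 to 2277), p0-1 at 10 nM replicate 3 had 36.5 at Lef1 -75812 (60.7 to 80.3), pMN at 100 nM replicate 2 had 256 at Tcf7l1 +74526 (315 to 342), and pMN at 100 nM replicate 3 had 1073 at Tcf7l1 +77279 (943 to 989). In p3 of day 4, replicate 2 at 100 nM had 83.4 at Tcf7l2 +145018 (104 to 110) and replicate 1 at 500 nM had 516 at Lgr5 +581 (680 to 711). At day 5, p0-1 at 10 nM replicate 1 had 0 at Axin2 -13371 (5.08 to 7.21) and 269 at Tcf7l2 +182212 (186 to 203). In p3 of day 5, replicate 2 at 100 nM had 182 at Lef1 -90007 (79.8 to 97.3) and 642 at Sp5 -97 (704 to 722), and replicate 3 had 17.6 at Sp5 -156338 (8.97 to 10.8). In pMN of day 5 at 100 nM, replicate 2 had 148 at Notum -5406 (111 to 120) and replicate 1 had 180 at Lgr5 -77095 (117 to 121). At day 6, p3 at 500 nM replicate 2 had 1430 at Tcf7l2 +1005 (1553 to 1564), and p0-1 at 10 nM replicate 2 had 1.16 at Sp5 -156338 (7.06 to 9.68).

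The change from day 4 to day 6 differed between p3 and pMN at 5 elements, by the difference of the changes in limma. The p3 change minus the pMN change was -1.14 at Tcf7 -4081, 1.62 at Tcf7l1 +74526, 1.15 at Tcf7l1 +77279, -1.74 at Tcf7l2 +135622 and 1.08 at Nkd1 -32572. At Tcf7l2 +135622 the adjusted p was above 0.01 when 1 of 4 libraries of day 6 was left out: p3 at 500 nM replicate 2 (difference -1.54) or 3 (-1.62), and pMN at 100 nM replicate 2 (-1.70) or 3 (-1.65).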

How the results depend on the processing

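None of the 282 calls in single pairs turned direction under any alternative with all libraries. The counts moved mainly with the filter and the fold limit, by construction of those settings. In the order NMP to day 4, day 4 to 5, day 5 to 6, p3 at days 4, 5 and 6, the other types among each other at days 4, 5 and 6, and the p3 to pMN difference, a log2 fold above 2 gave 28, 1, 0, 1, 7, 7, 0, 0, 0 and 0 elements. No filter gave 133, 66, 14, 36, 58, 67, 15, 26, 22 and 23, and a minimum of 30 normalized counts gave 110, 37, 12, 24, 37, 51, 8, 15, 16 and 17. Of all tested elements, the stricter fold called 28.9%, 7.27%, 0.667%, 2.42%, 10.3%, 17.1%, 0.501%, 1.99%, 3.41% and 1.87%. No filter called 66.8%, 42.9%, 12.6%, 18.3%, 40.6%, 42.5%, 6.12%, 19.9%, 16.8% and 13.6% of all. The minimum of 30 called 65.8%, 35.1%, 11.9%, 17.3%, 37.1%, 44.2%, 5.78%, 18.2%, 19.1% and 14.3% of all. The replicate block gave 6 elements for day 5 to 6, 8 for the p3 to pMN difference and 2 for SAG with the title numbers, and 4, 5 and 2 with the description numbers. For SAG, 29 of 30 same-numbered pairs correlated above 0.1 (median r 0.740), and the exception was in p3 at day 4 (0.065). It was 8 of 12 pairs for NMP to day 4, 11 of 12 for day 4 to 5 and 8 of 9 for p3 against the others at day 4. In these last comparisons the numbers do not pair the samples throughout. The block changed no other count by more than 1.5 times. Median centring gave 1 and 2 elements among the other types at days 4 and 6 (3.66% and 14.4% of all tested), and voom gave 0 at day 4 (3.52%). The cause was not tested. Of the 282 calls, 159 were lost with the stricter fold, 84 in 1 fit over all samples, whose filter runs over all 67 samples, 39 with voom, 32 with centring and 1 each with no trend and with description numbers. Leaving out each library gave 45 to 54 elements for NMP to day 4, 13 to 15 for day 4 to 5, 2 to 5 for day 5 to 6, 9 to 10, 14 to 14 and 16 to 22 for p3 at days 4, 5 and 6, 0 to 3, 3 to 5 and 3 to 4 among the other types, 0 to 0 for SAG and 3 to 8 for the p3 to pMN difference. The 5 at day 5 to 6 came without p0-1 at 0 nM replicate 3 of day 6, the 5 among the others at day 5 without pMN at 500 nM replicate 3, and 0 at day 4 without 1 of the pMN libraries at 100 nM (replicate 1, 2 or 3), pMN at 500 nM replicate 1 or p0-1 at 10 nM replicate 3. Leaving out pMN at 500 nM replicate 2 or 3 or p0-1 at 0 nM replicate 2 at day 4 gave 1. No test was made at the 81 elements that were below the filter in every comparison.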

Other observations

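The TSS elements of other genes of the pathway, from lists of ligands, receptors, secreted or membrane inhibitors and signal transducers, were compared between NMPs and day 4 in the same way. The ligand list held Wnt genes and R-spondin genes. Of the tested TSS elements, 14 of 22 of ligands, 4 of 17 of receptors, 9 of 17 of inhibitors and 1 of 18 of transducers were lower at day 4 in at least 1 pair, and 0 were higher in any list. Of the TSS elements of all genes, taken as the element nearest to each TSS, 26.2% were lower and 3.6% higher. The median of the mean log2 fold changes was -1.08, -0.34, -0.72 and -0.39. It was -0.42 over all elements of the annotation's promoter class with a mean above 100, a class to which part of the listed elements do not belong.

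The 6 that fell most were lower in all 4 pairs. Dkk4, a secreted antagonist, had 221 to 332 normalized counts in NMPs and a mean log2 fold change of -3.61. Wnt8a, a ligand of the gastrulating embryo and tail bud, had 1302 to 1795 counts in NMPs and 92.2 to 123 in p3 at day 4 (-3.58). The element nearest to the TSS of the receptor gene Fzd10, an intergenic one at 5630 bp downstream of it, changed by -2.48, and that of the ligand gene Wnt10a, intergenic at -1986 bp, by -2.30. Wnt3a, the main ligand of the tail bud, had 704 to 747 counts in NMPs and 109 to 398 over the day 4 groups (-1.95), and Kremen2, which encodes a receptor for Dkk proteins, changed by -1.90. Counting all elements annotated to these genes, both directions occurred: 18 of 83 tested were higher and 37 lower for ligands, 14 and 16 of 46 for receptors, 15 and 20 of 49 for inhibitors, and 21 and 10 of 62 for transducers, where 25% of all tested elements were higher and 29.7% lower.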
